A study of Homo sapiens with 6 samples.

Results

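The transcripts of 9 genes of the p53 pathway were followed in RNA-seq counts from 786-O, a human cell line derived from a clear cell carcinoma of the kidney. They were chosen by symbol from a table of 54261 gene symbols: MDM2, MDM4, CDKN1A, PHLDA3, FAS, TP53INP1, SESN1, RRM2B and ZMAT3, and all 9 were present. The PHF8 knockout cells had received PHF8 guide RNA by CRISPR-Cas9, and the control cells had received a control guide RNA and are labelled PHF8 wildtype. PHF8 is an enzyme that takes methyl groups off histones, mainly marks linked to silencing. Each group had 3 libraries of total RNA, and both were grown in RPMI-1640 with serum. Clone or pool is not stated for the knockout cells, nor are separate cultures for the libraries of a group, so p-values measure only the spread between these samples, which may be technical. The question was how the transcripts of these p53 targets differed between knockout and control cells.

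p53 is a transcription factor that is stabilised by DNA damage and other stress and binds a paired element in its target genes. Its targets include its own inhibitors, which close a feedback loop, and genes that stop the cell cycle, promote cell death, repair DNA or change metabolism. Many of these genes are also driven by other factors, so a transcript level is not a readout of p53 protein, which was not measured here.

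The sequence that p53 binds is known as the p53 consensus element, made of 2 adjoining half-sites of 10 bases, each built around a core of the form CNNG. A scan of 5000 bases on each side of the start of the canonical transcript recorded, for each gene, the match with the fewest departures from the consensus, with none allowed in the C and G of the cores. The element is its own reverse complement, so a single pass covers both strands. The best matches of 4 of the 5 targets with at most 2 departures are shown as examples of how near these genes come to the element (GRCh38, 5′ to 3′ on the strand of the gene, positions 4 to 7 of each half-site in capitals).
ZMAT3: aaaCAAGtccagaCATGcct
CDKN1A: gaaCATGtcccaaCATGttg
MDM2: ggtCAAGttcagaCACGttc
FAS: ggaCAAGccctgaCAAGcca
The ZMAT3 match, at chr3:179070188-179070207 (minus strand) in intron 1, had 0 departures, as did the best match of 0.146% of the 19173 protein-coding genes scanned. The CDKN1A match lies at chr6:36676449-36676468 (plus strand), 2256 bases upstream of the canonical start. The MDM2 match lies at chr12:68808923-68808942 (plus strand) in intron 1, 756 bases past the canonical start, and the FAS match at chr10:88991309-88991328 (plus strand) in intron 1, 520 bases past the canonical start. These 3 matches had 2 departures each, a number that 7.64% of genes reached or bettered. RRM2B had a match with 1 departure in intron 1, reached or bettered by 1.06% of genes, and SESN1 one with 3, reached or bettered by 41.1%. The best matches of MDM4 and TP53INP1 had 4 departures and that of PHLDA3 had 5, which 81.2% and 96.9% of all genes reached or bettered. A match describes letters only and does not show that p53 binds there.

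The libraries held 25632275, 25921090 and 29095133 counted reads in knockout cells and 21533615, 23760160 and 25055762 in control cells. The PHF8 transcript had 10.8, 6.73 and 12.8 CPM in knockout libraries and 36.5, 35.0 and 32.9 CPM in control libraries, with a log2 fold change of -1.78 (SE 0.21; edgeR adjusted p = 1.19e-04; CPM is the read count scaled to library size with TMM factors). Markers of the renal line were present, with 7 of 7 detected and a summed level, made up mostly by VIM, of 6814 to 8206 CPM in knockout libraries and 6366 to 6414 CPM in control libraries. PAX2 of that list went the other way, with 78, 64 and 94 reads in knockout libraries and 164, 166 and 157 reads in control libraries. For CDH6, KRT8 and EPAS1 of that list the groups overlapped in CPM. Of 4 leukocyte markers, PTPRC, CD3E and LYZ had 0 reads in all 6 libraries and CD79A had 1 to 6 reads in knockout libraries and 1 to 8 in control libraries. Of 3 endothelial markers, CDH5 had 0 reads, VWF at most 2 in a library, and PECAM1 19, 23 and 21 reads in knockout libraries and 22, 15 and 20 reads in control libraries. The haemoglobin genes HBB and HBA1 had 0 reads. In these bulk libraries, fewer cells of a kind and less RNA per cell cannot be told apart.

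Of the 9 p53 targets, 2 rose and 6 fell in knockout cells at an adjusted p under 0.05 and 1 did not pass (edgeR quasi-likelihood test, Benjamini-Hochberg adjusted over 14398 tested genes). All 9 passed the filter on low counts. Changes were frequent throughout the table: 59.7% of all tested genes passed, 28.9% higher and 30.8% lower. CDKN1A and PHLDA3 rose 1.55-fold and 1.65-fold. TP53INP1 fell 4.84-fold, RRM2B 2.97-fold, MDM2 1.92-fold, ZMAT3 1.79-fold, SESN1 1.70-fold and MDM4 1.40-fold. TP53INP1 and RRM2B were past the 2-fold criterion of the series, against 14.2% of all tested genes that were lower past it. The 3 knockout libraries lay entirely above or entirely below the 3 control libraries for 8 of the 9 targets, against 66.8% of all tested genes. The median log2 fold change of the 9 was -0.77, beside -0.01 over all tested genes.

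**Figure D1:**
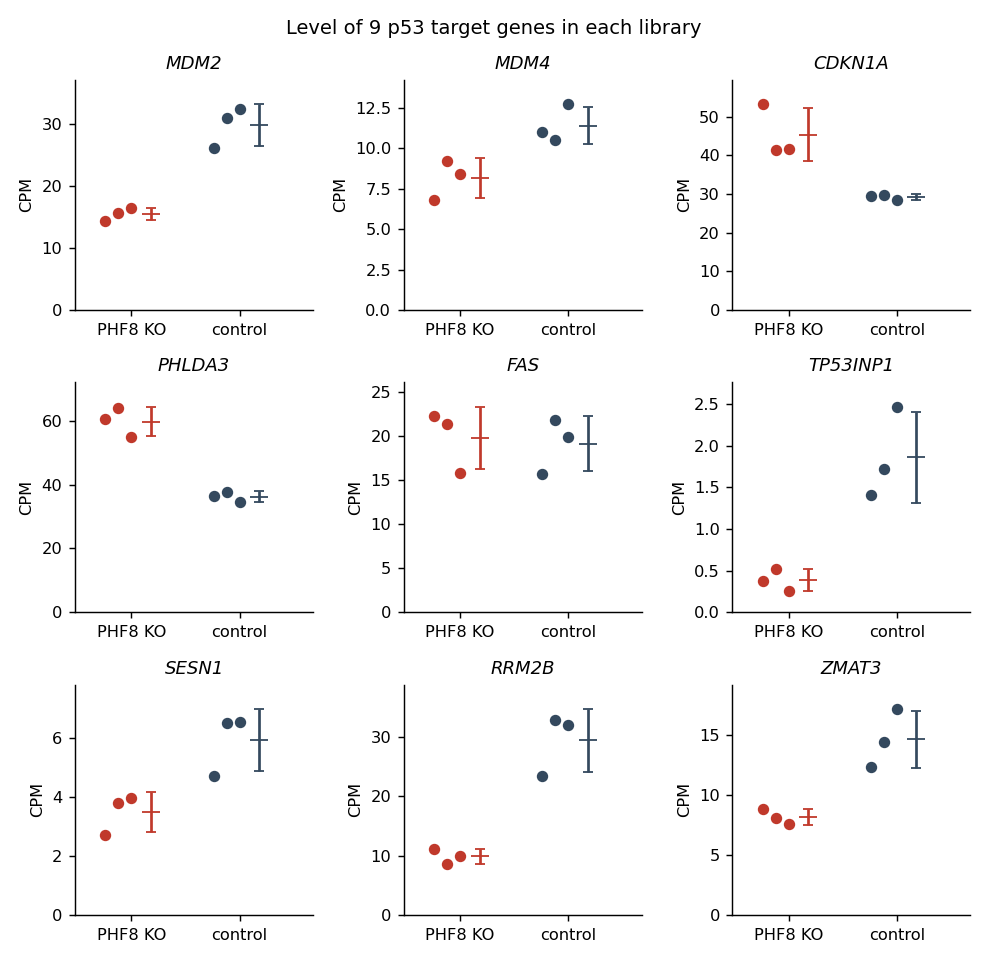
Level of each of the 9 p53 target genes in CPM (vertical axes, each from 0) in the 3 PHF8 knockout libraries (left, red) and the 3 control libraries (right, dark), 1 point a library, with the mean and SD beside the points. The groups do not overlap except for FAS; CDKN1A and PHLDA3 are higher in knockout cells and the other 6 lower.

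Per length of the canonical transcript, PHLDA3 and CDKN1A were the most abundant of the 9, at 21.7 ± 1.67 and 21.4 ± 3.19 RPKM in knockout cells and 13.2 ± 0.60 and 13.8 ± 0.36 RPKM in control cells (CPM per kilobase; SD, n = 3 each). These 2 levels differed by less than the spread between libraries in knockout cells. FAS followed in knockout cells with 5.35 ± 0.94 RPKM, and RRM2B followed in control cells with 6.17 ± 1.10 RPKM. RRM2B and MDM2 both had a mean level of about 2.1 RPKM in knockout cells (2.08 ± 0.26 and 2.07 ± 0.14), and RRM2B stood above MDM2 (3.99 ± 0.45) in control cells. TP53INP1 was the scarcest in both groups, at 0.069 ± 0.024 RPKM in knockout cells and 0.33 ± 0.097 RPKM in control cells. Its level rests on 7 to 13 reads a library in knockout cells and 32 to 66 in control cells.

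The feedback inhibitors of p53 were both lower in knockout cells. MDM2 (chromosome 12, 68808177 to 68845544, plus strand, GRCh38) encodes the ubiquitin ligase that marks p53 for degradation and is itself induced by p53. It had 14.4, 15.7 and 16.5 CPM in knockout libraries 1, 2 and 3, against 26.1, 31.0 and 32.5 CPM in control libraries 1, 2 and 3. Every knockout library was below the lowest control library, control library 1. The log2 fold change was -0.94 (SE 0.13; edgeR adjusted p = 2.52e-04). MDM4 (chromosome 1, 204516379 to 204558120, plus strand) encodes a partner of MDM2 that covers the activation domain of p53. It had 6.82, 9.23 and 8.41 CPM in knockout libraries and 11.0, 10.5 and 12.7 CPM in control libraries. The groups did not overlap, but the gap was narrow, and the log2 fold change was -0.49 (SE 0.16; edgeR adjusted p = 0.025). The MDM4 call was lost without knockout library 1 (log2 fold change -0.37, adjusted p = 0.082), knockout library 3 (-0.50, adjusted p = 0.051) or the third control library (-0.38, adjusted p = 0.12). With the offset MDM2 lay at -0.01 (edgeR adjusted p = 0.91). MDM4 then had the opposite sign, at 0.41 (edgeR adjusted p = 0.11). The adjusted p of MDM4 ran from 0.00702 to 0.17 across the alternatives, the highest with the replicate block and the offset together (0.39).

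Ratios of read counts within a library do not depend on the scaling between libraries, but they do carry any trend in transcript length and GC content. The ratio of CDKN1A to MDM2 reads was 3.68, 2.63 and 2.52 in knockout libraries and 1.13, 0.96 and 0.87 in control libraries. The ratio of MDM4 to MDM2 reads was 0.47, 0.59 and 0.51 in knockout libraries and 0.42, 0.34 and 0.39 in control libraries. Neither ratio overlapped between the groups, beside 66.8% of all tested genes whose own levels did not overlap. The share among ratios of other genes was not measured. CDKN1A and MDM2 differ in length and GC content (2117 bases with 57.3% GC and 7490 bases with 39.5% GC), and after an offset for both properties their log2 fold changes were 0.17 and -0.01. Over these 2 ratios the two-sided exact permutation p was 0.1 for each, also after Benjamini-Hochberg adjustment, which is the smallest p that 3 against 3 libraries allow.

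CDKN1A and PHLDA3 were the targets that rose with TMM factors. Under the offset PHLDA3 kept its call (log2 fold change 0.34), while CDKN1A (0.17) did not pass. CDKN1A (chromosome 6, 36676460 to 36687337, plus strand) encodes p21, which binds cyclin-dependent kinases and halts the cell cycle. It had 53.1, 41.4 and 41.5 CPM in knockout libraries, against 29.5, 29.8 and 28.3 CPM in control libraries. Knockout library 1 was the highest, and the lowest knockout library was well above all controls. The log2 fold change was 0.63 (SE 0.13; edgeR adjusted p = 0.00203). PHLDA3 (chromosome 1, 201464278 to 201469237, minus strand) encodes a small lipid-binding protein that competes with the kinase AKT for the membrane. It had 60.5, 63.8 and 54.8 CPM in knockout libraries and 36.6, 37.7 and 34.4 CPM in control libraries, again without overlap. The log2 fold change was 0.72 (SE 0.10; edgeR adjusted p = 3.69e-04). In the annotation 18.4% of the exonic bases of PHLDA3 also belong to a long noncoding RNA of the same strand, and 4.87% of those of CDKN1A to DINOL, a noncoding RNA of the opposite strand. The largest such share with a single other gene was 9.45% for MDM2, 6.48% for FAS, 4.99% for SESN1 and 3.99% for TP53INP1. How reads in such bases were counted is not given in the sources used here.

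Among the targets of cell death, FAS and TP53INP1 differed from each other. Under the offset FAS lay at 0.65 and TP53INP1 at -1.50 on the log2 scale, each past the threshold. FAS (chromosome 10, 88953813 to 89029605, plus strand) encodes the death receptor of Fas ligand. It had 22.3, 21.3 and 15.8 CPM in knockout libraries and 15.7, 21.8 and 19.9 CPM in control libraries. The groups overlapped, and knockout library 3 and control library 1 were nearly level at the low end. The log2 fold change was 0.05 with a 95% interval of -0.34 to 0.44 (edgeR adjusted p = 0.82). TP53INP1 (chromosome 8, 94925972 to 94949378, minus strand) encodes a stress-induced protein that promotes p53 phosphorylation and autophagy. It had 0.37, 0.52 and 0.26 CPM in knockout libraries and 1.40, 1.72 and 2.46 CPM in control libraries. The groups were far apart at a low level, and the log2 fold change was -2.28 (SE 0.35; edgeR adjusted p = 5.21e-04).

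SESN1, RRM2B and ZMAT3 were lower with TMM factors. Under the offset RRM2B kept its call (log2 fold change -0.76), while SESN1 (-0.04) and ZMAT3 (0.19) did not pass. SESN1 (chromosome 6, 108984309 to 109094846, minus strand) encodes a sestrin, a stress protein that restrains the growth kinase complex mTORC1. It had 2.71, 3.79 and 3.97 CPM in knockout libraries and 4.74, 6.52 and 6.57 CPM in control libraries. Knockout library 3 came closest to control library 1 without reaching it, and the log2 fold change was -0.77 (SE 0.21; edgeR adjusted p = 0.011). RRM2B (chromosome 8, 102204502 to 102238961, minus strand) encodes the p53-induced small subunit of ribonucleotide reductase, which makes DNA precursors outside S phase. It had 11.2, 8.67 and 9.92 CPM in knockout libraries and 23.4, 32.9 and 32.0 CPM in control libraries. All knockout libraries were below 40% of the control mean (38.0%, 29.4% and 33.7%), and the log2 fold change was -1.57 (SE 0.17; edgeR adjusted p = 7.6e-05). ZMAT3 (chromosome 3, 178960121 to 179072215, minus strand) encodes a zinc finger protein that binds RNA and affects splicing. It had 8.82, 8.07 and 7.57 CPM in knockout libraries and 12.3, 14.4 and 17.1 CPM in control libraries. The knockout libraries lay close together and the controls were spread, with a log2 fold change of -0.84 (SE 0.16; edgeR adjusted p = 0.00147).

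Among the 9 targets, no common order of departures from the consensus element and direction of change with TMM factors was seen. A relation was not tested, and the scan covered only adjoining half-sites. Among the 5 targets whose best match had at most 2 departures, CDKN1A rose, RRM2B, ZMAT3 and MDM2 fell, and FAS did not pass the test. PHLDA3, whose best match had the most departures of the 9, rose. Under the offset for length and GC content CDKN1A, MDM2 and ZMAT3 lost their calls, and FAS was higher (log2 fold change 0.65).

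The direction of change with TMM factors ran with the length and GC content of the transcript. The 2 targets that rose have canonical transcripts of 2117 bases (CDKN1A) and 2749 bases (PHLDA3) with 57.3% and 59.0% GC, above 77.9% and 82.8% of tested genes in GC content. The 6 that fell have transcripts of 4774 bases (RRM2B) to 10050 bases (MDM4) with 35.1% (RRM2B) to 42.3% GC (MDM4). FAS, which did not pass, has 3696 bases with 38.0% GC. Tested genes were also cut into 4 bins of like size by length and 4 by GC content. The 1261 genes in the same pair of bins as MDM2, SESN1, TP53INP1 and ZMAT3 had a median log2 fold change of -0.97. RRM2B and FAS share their bins with 982 genes whose median was -0.67, and MDM4 with 953 genes whose median was -0.63. CDKN1A and PHLDA3 share theirs with 1052 genes whose median was 0.47. There was spread within the control group too: the 1261 long genes of low GC content lay at -0.43, -0.53 and -0.35 (median log2 deviation from the mean of the 6 libraries) in knockout libraries and at 0.16, 0.58 and 0.61 in control libraries. Control library 1 was the lowest control library for MDM2, SESN1, RRM2B, TP53INP1, ZMAT3 and FAS.

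**Figure D2:**
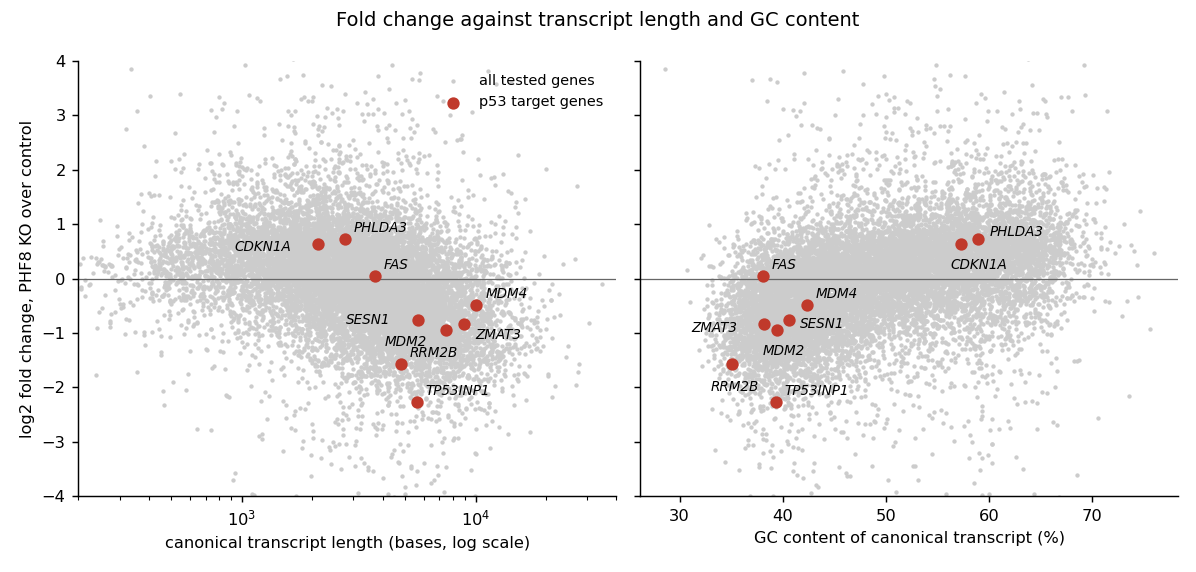
Log2 fold change, PHF8 knockout over control (vertical axis), against canonical transcript length in bases (left, log axis) and GC content in percent (right) for tested genes with both values (grey, 13303 genes) and the 9 p53 targets (red). CDKN1A and PHLDA3 sit among genes of high GC content, at 2117 and 2749 bases, and the other 7 among longer transcripts of lower GC content; 86 genes lie outside the vertical limits and 88 outside the length limits.

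With an offset that removes smooth trends in length and GC content from each library, 3 of the 8 calls passed in the same direction and 5 no longer passed; among all tested genes, 5911 of 8593 calls passed in the same direction, 326 in the other and 2356 did not pass. TP53INP1 remained lower (log2 fold change -1.50, SE 0.33; edgeR adjusted p = 0.00341), as did RRM2B (-0.76, SE 0.12; adjusted p = 5.53e-04), and PHLDA3 remained higher (0.34, SE 0.10; adjusted p = 0.019). MDM2 lay at -0.01 (SE 0.10), SESN1 at -0.04 (SE 0.17), CDKN1A at 0.17 (SE 0.10), ZMAT3 at 0.19 (SE 0.13) and MDM4 at 0.41 (SE 0.20), with adjusted p from 0.11 to 0.91. FAS passed with the offset, at 0.65 (SE 0.14; adjusted p = 0.0027). The offset thus left 2 targets higher and 2 lower, against 30.8% of all tested genes higher and 28.5% lower, and a median of 0.17 over the 9 targets beside 0.02 over all tested genes. Since the trends are taken against the average of the 6 libraries, the offset also takes away any part of the knockout effect that goes with length or GC content; whether the trend is technical was not tested.

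**Figure D3:**
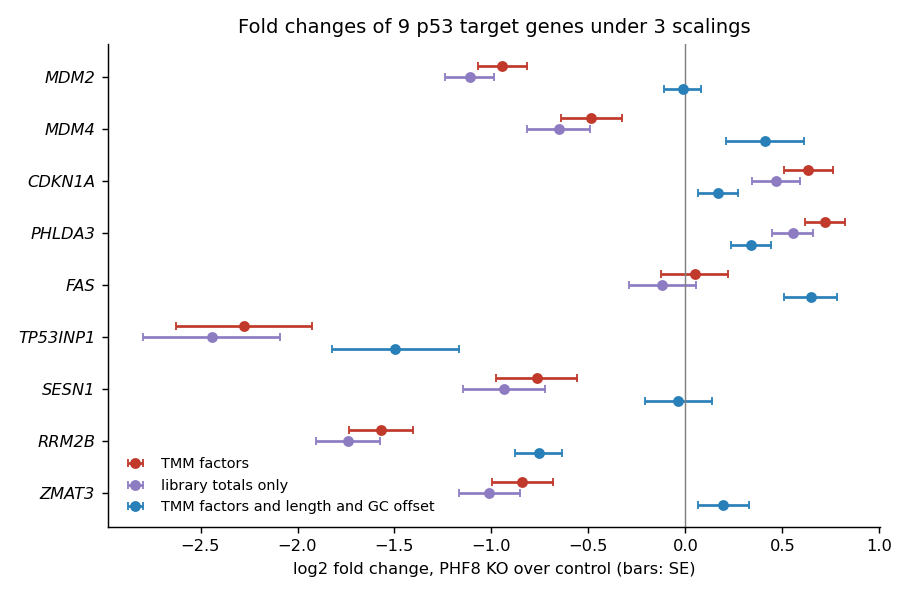
Log2 fold change, PHF8 knockout over control (horizontal axis; points with SE bars), of the 9 p53 targets with TMM factors (red), with library totals only (purple) and with TMM factors and the length and GC offset (blue). RRM2B, TP53INP1 and PHLDA3 keep their direction and their call in all 3. Compared with TMM factors alone, the offset moves every fold change toward or past 0 except that of FAS, which moves away from it.

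The profiles most like those of MDM2 and CDKN1A over the 6 libraries were sought among the other 14397 tested genes, as the smallest root mean square difference in log2 CPM after centring each gene. For MDM2 they were ZNF252P (0.030), HSDL2 (0.031) and ARPP19 (0.033), with log2 fold changes of -0.97, -0.95 and -0.96. For CDKN1A they were ATP9B (0.048), SLC39A14 (0.049) and FGGY (0.052), with log2 fold changes of 0.69, 0.60 and 0.70. None of these 6 is among the pathway genes listed here. Those genes are so few beside 14397 candidates that their absence says little about the pathway.

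Close relatives of the targets moved in several directions. SESN2, the sestrin gene that is also driven by ATF4, rose 1.76-fold with 1309, 872 and 1138 reads in knockout libraries and 579, 612 and 659 reads in control libraries (edgeR adjusted p = 0.00173). SESN3 had 1, 0 and 0 reads in knockout libraries and 23, 38 and 28 reads in control libraries (edgeR adjusted p = 7.65e-05). By library totals that is 0.98% of the control level, with a 95% counting interval of 0.0245% to 5.60%. The 3 sestrin genes thus changed in different directions with TMM factors, but SESN1 lay at -0.04 under the offset (edgeR adjusted p = 0.87). RRM1, the large subunit of ribonucleotide reductase, and RRM2, the S phase small subunit, fell by 0.59 and 0.41 on the log2 scale; under the offset RRM2 was at -0.06 and lost its call. The log2 fold change of RRM2B was larger in size than either, also with the offset (-0.76, beside -0.30 for RRM1); the difference between these genes was not tested. CDKN1B, the p27 relative of CDKN1A, fell by 0.73 on the log2 scale (edgeR adjusted p = 5.03e-04), opposite to CDKN1A. PHLDA2 and PHLDA1 rose with PHLDA3, by 1.75 and 0.36 on the log2 scale; PHLDA1 lay at 0.19 with library totals only (edgeR adjusted p = 0.13, and 4.03e-05 to 0.13 across the alternatives) and at 0.99 under the offset. The offset put PHLDA2 at 1.07 and SESN2 at 0.52 on the log2 scale, each past the threshold.

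Among the listed partners of FAS, 6 were tested, of which 1 rose and 2 fell, and 3 missed the threshold, beside 28.9% higher and 30.8% lower among all tested genes. Under the offset 3 were higher and 2 lower, beside 30.8% and 28.5%. FADD, the adaptor of death receptors, rose 1.78-fold, at 132 CPM in knockout cells and 74.3 CPM in control cells (edgeR adjusted p = 1.26e-04), and its log2 fold change of 0.83 became 0.30 under the offset. CASP10, an initiator caspase, fell by 0.98 on the log2 scale (edgeR adjusted p = 4.94e-04) and was at -0.59 under the offset. CFLAR, an inhibitor of caspase 8, fell by 0.25 on the log2 scale (edgeR adjusted p = 0.037), a call lost without knockout library 3 (adjusted p = 0.10), without any 1 of the control libraries (adjusted p from 0.083 to 0.16), with no filter, with DESeq2 (adjusted p = 0.0504) and with the replicate block (adjusted p = 0.0895). CFLAR was at 0.61 under the offset, and its adjusted p ran from 0.0029 to 0.16 across the alternatives. FASLG, the gene of Fas ligand, had 0, 0 and 1 reads in knockout libraries and 0, 0 and 1 reads in control libraries.

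Other p53 target genes were divided as well. Of 55 listed genes in 6 groups, 52 were tested, and 19 rose, 15 fell and 18 did not pass. Among all tested genes 28.9% were higher and 30.8% lower. The pathway genes had a median log2 fold change of 0.18 beside -0.01 over all tested genes. With library totals only, 11 rose and 17 fell (median 0.01 beside -0.18 over all tested genes, of which 21.9% were higher and 37.8% lower). The offset gave 21 higher and 16 lower (median 0.10 beside 0.02 over all tested genes, of which 30.8% were higher and 28.5% lower). Of the 34 called genes, 25 passed with the same sign under the offset and 2 with the other sign (BAX and TIGAR, named after their values were seen), and 7 lost the call, beside 5911, 326 and 2356 of the 8593 called genes in the whole table.

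**Figure D4:**
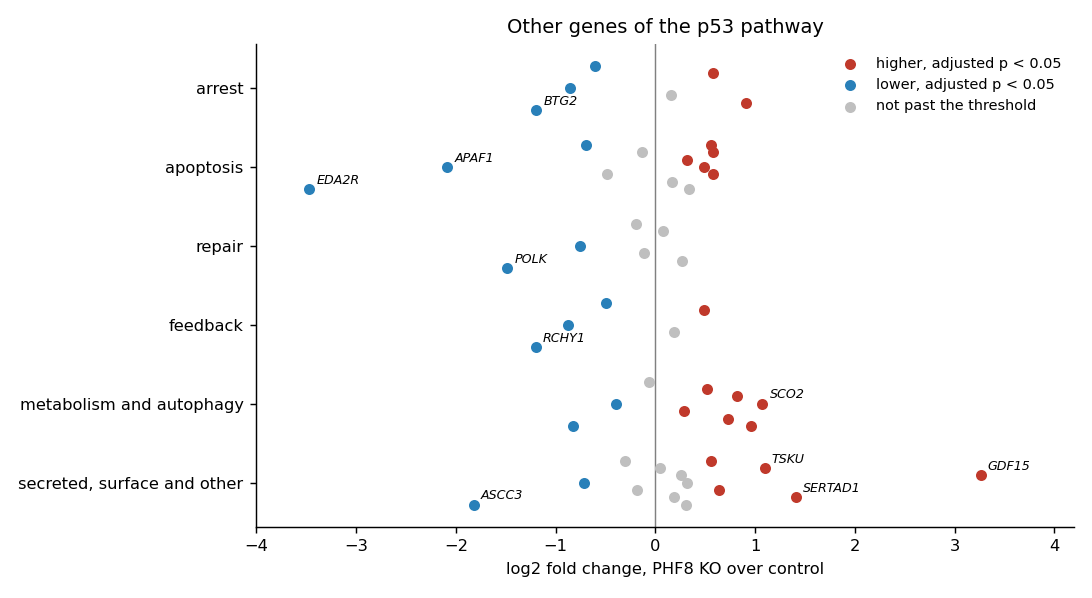
Log2 fold change, PHF8 knockout over control (horizontal axis), of the 52 tested pathway genes in 6 groups (rows), 1 point a gene, red where higher and blue where lower at an adjusted p under 0.05 and grey where the test was not passed. Called genes with a log2 fold change of at least 1 in size carry their names; each group but repair holds called genes on both sides.

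The largest rise among these pathway genes was that of GDF15, a secreted stress cytokine that is induced by p53 and by ATF4. It had 1432, 2033 and 1899 reads in knockout libraries and 160, 168 and 222 reads in control libraries, and its log2 fold change was 3.26 (SE 0.16; edgeR adjusted p = 2.87e-06). SERTAD1, a cell cycle regulator, TSKU, a secreted protein, and SCO2, a copper chaperone of cytochrome oxidase, rose by 1.41, 1.09 and 1.07 on the log2 scale. With the offset GDF15 lay at 2.59, SERTAD1 at 0.99, TSKU at 0.66 and SCO2 at 0.38, each still past the threshold.

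Among the falls past 2-fold, EDA2R, a death domain receptor, had 1, 0 and 3 reads in knockout libraries and 15, 19 and 13 reads in control libraries, so its knockout level rests largely on library 3. By library totals its level was 7.42% of control, with a 95% counting interval of 1.94% to 20.3%. APAF1, which assembles the apoptosome, had 189, 173 and 238 reads in knockout libraries and 674, 841 and 996 reads in control libraries (log2 fold change -2.09, SE 0.14; edgeR adjusted p = 1.22e-05). ASCC3, a helicase, POLK, a translesion polymerase, RCHY1, a ubiquitin ligase of p53, and BTG2, an antiproliferative gene, fell by 1.82, 1.49, 1.20 and 1.20 on the log2 scale. With the offset APAF1 lay at -1.28, ASCC3 at -0.88, POLK at -0.35, RCHY1 at -0.46 and BTG2 at -1.41, each past the threshold. The adjusted p of POLK was 0.0468 with the offset, and its call was lost with the replicate block and the offset together (-0.35, edgeR adjusted p = 0.0856).

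Further genes are named after their values were seen. CCNG1, cyclin G1 of the MDM2 feedback loop, fell by 0.88 on the log2 scale and was at -0.49 under the offset. PPM1D, the phosphatase that dampens p53 signalling, fell by 0.50, a call lost without the second control library (-0.38; edgeR adjusted p = 0.10) and under the offset (-0.14), and its adjusted p ran from 0.00335 to 0.44 across the alternatives. Of the mitochondrial death genes, PMAIP1 lay at 0.49 and BAX at 0.31 (edgeR adjusted p = 0.023 and 0.042). The PMAIP1 call was lost with scaling by library totals (0.32) and without the first control library (0.39, adjusted p = 0.070), while the offset put PMAIP1 at 0.82; its adjusted p ran from 1.21e-05 to 0.11 across the alternatives. The BAX call was lost without knockout library 3 or control libraries 2 or 3 (adjusted p from 0.098 to 0.14), with library totals only, with no filter and with the replicate block (adjusted p = 0.0753). BAX was at -0.32 under the offset (adjusted p = 0.00324), and its adjusted p ran from 0.00324 to 0.32 across the alternatives. TIGAR, a phosphatase of sugar metabolism, fell by 0.40 (edgeR adjusted p = 0.038), a call lost without knockout library 1 or 3 or control library 2 or 3 (adjusted p from 0.11 to 0.17), and was at 0.51 under the offset; its adjusted p ran from 0.00339 to 0.17 across the alternatives.

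Genes repressed through p21 and the DREAM complex, which silences cell cycle genes when p21 is active, were measured beside CDKN1A. CDKN1A itself lost its call under the offset (log2 fold change 0.17, edgeR adjusted p = 0.18). A link between CDKN1A and the levels of these genes was not tested. All 15 were tested, and 9 fell, 1 rose and 5 missed the threshold (30.8% of all tested genes were lower), with a median log2 fold change of -0.50 beside -0.01 over all tested genes. TTK, BUB1B, KIF23 and CDK1, kinases and a motor of mitosis, fell by 1.78, 1.60, 1.16 and 1.13 on the log2 scale and were at -1.21, -1.24, -0.72 and -0.74 under the offset. The gene that rose was BIRC5, the survivin gene (0.36), which like CKS2 is named after its values were seen; its call was lost with library totals only (0.19) and under the offset (0.09). Under the offset 13 of the 15 fell and 1 rose, CKS2, a small partner of cyclin-dependent kinases, at 0.35 and at 0.26 without it, where it did not pass (median of the 15 -0.55), beside 28.5% lower among all tested genes. TTK had 343, 322 and 439 reads in knockout libraries and 668, 1533 and 1562 reads in control libraries, so control library 1 was the lowest control there too.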

How the data were processed

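RNA-seq counts of 3 PHF8 knockout and 3 control libraries of 786-O cells were analysed. The deposited table gives whole read counts for each gene symbol, not normalized. Per the labels' series design text, the authors filtered reads, mapped them to GRCh38 (NCBI) with HISAT2 (version 2.0.4 per the submitters' processing notes) and counted them with HTSeq; not given in the sources used here were strand setting and annotation. The table held 6 sample columns, each tied to its sample by title.

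Groups were compared with edgeR 4.0.16 (R 4.3.3) by its quasi-likelihood test, with group as the only term, TMM factors (0.936 to 0.957 in knockout, 1.05 to 1.07 in control libraries), filterByExpr and Benjamini-Hochberg adjustment over 14398 genes. SE is the log2 fold change over the root of F. The members and lists were chosen with earlier results of these data known. Named genes are the members, called list genes past a log2 size of 1, called relatives of members, and others where the text says so. Coordinates, transcript lengths and GC content came from GENCODE on GRCh38 by symbol (34408 symbols by current name, 1574 by an older name from RefSeq, 18279 unmatched), and 92.4% of tested genes had both values. Sequences were read from the GRCh38 genome. In the offset, lowess trends (span 0.3) were removed per library.

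Alternatives were DESeq2 1.42.0, limma-voom (limma 3.58.1), median-ratio factors, library totals only, no filter, a filter at 1 CPM in every library of either group, the offset, the replicate number as a block without and with the offset, and leaving out each library. Libraries of a group differed by more than sampling noise (chi-square per degree of freedom 3.10 to 75.7), so none was a copy of another. The highest values, 75.7 and 58.9, were those of the pairs with knockout library 2, beside 11.3 for knockout libraries 1 and 3. Without knockout library 2, 9542 genes passed instead of 8593. This measure cannot tell repeat preparations of a culture from separate cultures. The biological coefficient of variation was 17.3% among knockout and 10.3% among control libraries. Counting intervals are exact and cover counting error only.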

Additional observations from a re-analysis of the deposited data

How the results depend on the processing

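Over 15 alternatives, PHF8, RRM2B, TP53INP1 and PHLDA3 kept their direction and their call. With the length and GC offset the targets that fell numbered 2 (also 2 with the replicate block and the offset), against 6 without it. With the offset alone, and then with the replicate block and the offset, MDM2 lay at -0.014 and -0.017, SESN1 at -0.036 and -0.044, CDKN1A at 0.17 and 0.16, MDM4 at 0.41 and 0.39, ZMAT3 at 0.19 and 0.19 and FAS at 0.65 and 0.63. By construction the offset removes differences that follow smooth trends in length or GC content, whatever their origin. The cause of these shifts was not tested. Among list genes BAX lay at -0.32 and -0.33, TIGAR at 0.51 and 0.49 and CFLAR at 0.61 and 0.60, each with the opposite sign without the offset. With library totals only, 11 pathway genes were higher and FAS lay at -0.12. Leaving out each library gave MDM4 -0.58 to -0.37 and FAS -0.049 to 0.19, with FAS at -0.043 without knockout library 1, -0.0064 without knockout library 2 and -0.049 without control library 1; the cause was not tested. Deviations from the group means of same-numbered libraries correlated at 0.026, -0.066 and 0.020, beside -0.067 to 0.058 for libraries of different numbers. With 3 libraries in each group, this cannot exclude that same-numbered libraries were handled together. With the replicate block alone 8308 genes passed instead of 8593, and the targets still numbered 2 higher and 6 lower. Depth limits TP53INP1, EDA2R and SESN3 most.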

Other observations

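Several further pathway genes, named after their values were seen, passed the test in both directions. PLK3, a stress kinase, PRKAB1, a subunit of AMP-activated kinase, and FUCA1, a lysosomal fucosidase, rose by 0.90, 0.96 and 0.72 on the log2 scale and lay at 0.42, 0.62 and 0.49 with the length and GC offset (edgeR adjusted p from 1.45e-04 to 6.34e-04 without it). AEN, a nuclease induced by p53, rose by 0.58 and lay at 0.30 with the offset. PLK2, a kinase related to PLK3, fell by 0.60 and lay at -0.56 with the offset, so these 2 relatives moved in opposite directions. ULK1, which starts autophagy, fell by 0.83 and lay at -0.94 with the offset, and TP53I3, an oxidoreductase gene, fell by 0.69 and lay at -1.26.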
